A study of Mus musculus with 12 samples.

Results

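The 9 genes described here encode proteins reported to bind, or to share a signalling route with those that bind, mutant glycyl-tRNA synthetase. They are Nrp1, Vegfa, Sema3a, Kdr, Flt1, Ntrk2, Ntrk3, Ngfr and Hdac6, picked by name among the 38924 genes of the deposited files. The rule uses no measured value, though the set was proposed with earlier results of these data known. All 9 were found, and all 9 passed the filter on low counts that left 17995 genes to test.

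Glycyl-tRNA synthetase, the product of Gars, loads glycine onto its tRNA, and dominant mutations in people lead to an inherited neuropathy of peripheral axons of the Charcot-Marie-Tooth group. Mutant forms of the enzyme have been described to open into a shape that binds neuropilin 1, a receptor shared by vascular endothelial growth factor A and semaphorin 3A, and to bind Trk receptors and the deacetylase HDAC6. Those are interactions between proteins. The data here are mRNA levels, and they bear on whether the genes of the binding partners differed in expression in the mutant cord before disease.

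RNA came from whole spinal cord of 12 mice aged 1 week, which the labels place before disease onset, with 1 library per mouse. P278KY mice carried the P278KY allele of Gars over a wt allele (6 libraries, 3 labelled female and 3 labelled male), and wt mice carried none (6 libraries, 3 labelled female and 3 labelled male). All were of the mixed B6J;CAST background, in which C57BL/6J is crossed with a wild-derived strain, and no treatment is given. Libraries are named by labelled sex, genotype and mouse number. Replicates are separate mice.

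The P278KY allele replaces a proline of the synthetase with lysine and tyrosine. The reference coding sequence around that codon is shown because it is the lesion that distinguishes the 2 groups, and capitals mark the proline codon. It comes from the plus strand of chr6:55055855-55055895 and chr6:55060909-55060912 (GENCODE M21 on GRCm38).
Gars-201: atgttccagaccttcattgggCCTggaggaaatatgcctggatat
Gars mRNA itself stood at 131 ± 7.36 CPM (counts scaled to library size) in P278KY libraries and 124.5 ± 6.74 CPM in wt libraries (SD, n = 6 each), with no difference called (log2 fold change 0.07 ± 0.05 SE; edgeR adjusted p = 0.9999). Within labelled sex it was 0.20 ± 0.05 in males (edgeR adjusted p = 0.891) and -0.05 ± 0.05 in females (0.756), with an interaction of -0.26 ± 0.07 (females over males; edgeR adjusted p = 0.225), none past the threshold. The mutation alters the protein, so this level does not test the labels.

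The libraries held 27713981 to 43219891 expected counts each. Markers of cord cells that were matched in the files, those of microglia included, were all detected, and were led by Stmn2 for neurons (577 TPM, a level scaled to transcript length, averaged over 12 libraries), Prph for motor neurons (74.2), Aqp4 for astrocytes (510), Gpr17 for oligodendrocyte precursors (136), Mbp for myelinating oligodendrocytes (10590), Cldn5 for endothelium (78.5) and Rgs5 for pericytes (117). Markers of neighbouring tissue were present too, among them those of Schwann cells, and were led by Pou4f1 for sensory ganglion neurons (13.9 TPM), Acta1 for skeletal muscle (239.5), Col1a2 for meninges and fibroblasts (247) and Hba-a2 for red blood cells (4420). Pou4f1 does not stand for the rest of its list. It lay between 9.61 and 21.4 TPM in P278KY libraries, where each other sensory ganglion neuron marker was at most 1.86 TPM. No listed marker found in the files was at 0 in every library. All 9 skeletal muscle markers had a higher fitted level in P278KY, with a summed level of 94.3 to 2963 TPM in P278KY libraries and 9.59 to 1146 TPM in wt libraries. Other lists leaned too. Higher in P278KY were 6 of 6 microglia markers, 0 of 8 Schwann cell, 0 of 7 tested sensory ganglion neuron and 1 of 7 motor neuron markers. No marker of these lists was called, and their part in the values below was not tested. Sex marks went against the label in 2 wt libraries, those labelled female wt 14 (Xist 0.552 CPM, Ddx3y 46.6 CPM) and male wt 19 (Xist 852 CPM, Ddx3y 0.0231 CPM). They keep their labels here. Several results are given with and without them, though those of Gars within labelled sex are given only with them.

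None of the 9 genes differed between P278KY and wt cords past the threshold, an edgeR adjusted p under 0.05 over 17995 genes. The background of that comparison was 0.00556% of genes called, a single gene, so a count of 0 among 9 is what the background gives. DESeq2 called 33 genes, 0.183% of those tested, and none of the 9. Of the 9 log2 fold changes 5 were positive and 4 negative, with a median of 0.0076 beside a median of -0.0064 over all genes tested. For every one of the 9 the range of the 6 P278KY libraries overlapped that of the 6 wt libraries, as it did for all but 0.222% of tested genes. At an unadjusted p under 0.05 there was 1 of the 9, Sema3a, against 4.09% of all tested genes.

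**Figure D1:**
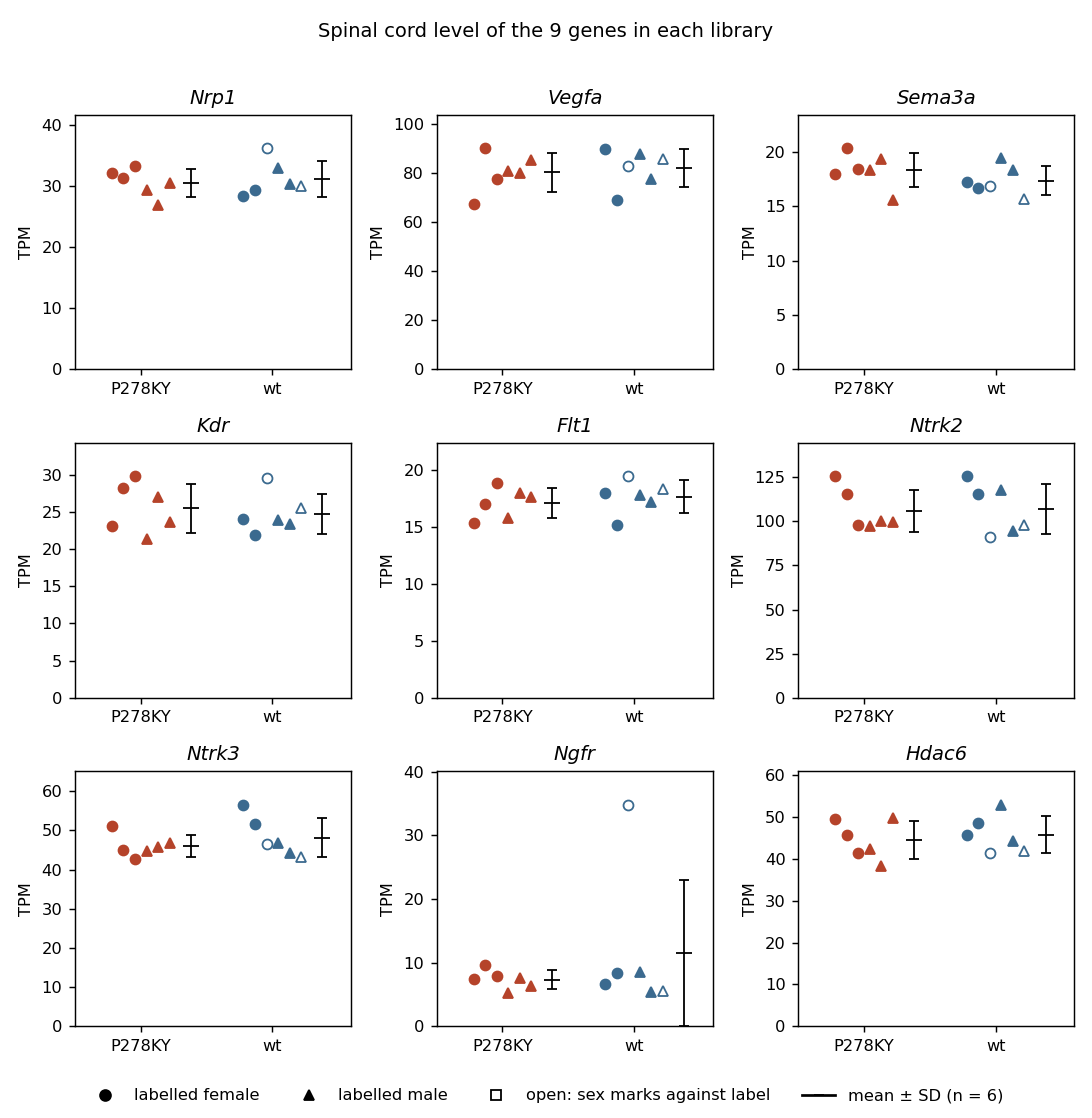
Level of each of the 9 genes in TPM (vertical axes, from 0) in 6 P278KY libraries (left of each panel) and 6 wt libraries (right); circles are labelled female, triangles labelled male, open symbols the 2 libraries with sex marks against their label, bars the mean ± SD. The ranges of the genotypes overlap for each gene, and 1 wt library stands at 34.9 TPM of Ngfr, above the other 11.

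By level per transcript length, averaged over the 12 libraries, the order was Ntrk2 (106 TPM), Vegfa (81.2), Ntrk3 (47.1), Hdac6 (45.2), Nrp1 (30.9), Kdr (25.1), Sema3a (17.9), Flt1 (17.4) and Ngfr (9.45). Ntrk2 stood above Vegfa in 12 of 12 libraries, and Vegfa above Ntrk3 in 12 of 12. The order of Ntrk3 over Hdac6 held in 9 of 12 libraries and that of Sema3a over Flt1 in 7 of 12, so these neighbours did not separate beyond their spread. Nrp1 lay above Kdr, and Flt1 above Ngfr, in 11 of 12 libraries. Among all genes of the files Ntrk2 ranked 1283rd by mean TPM and Ngfr 10345th. Of the 9 genes 8 were steady across mice, with a coefficient of variation of CPM between 6.57% (Vegfa) and 11.4% (Sema3a), whereas that of Ngfr was 82.1%.

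Neuropilin 1 is a cell surface receptor without a kinase of its own that passes on 2 unrelated signals: with plexins it receives class 3 semaphorins, which repel growing axons, and with VEGF receptors it strengthens the response to VEGF-A, which acts on vessels and on neurons. Nrp1 (ENSMUSG00000025810, chr8:128358604-128503363, plus strand) had 26.9, 30.9 and 33.4 TPM as lowest, median and highest P278KY library, against 28.4, 30.2 and 36.3 TPM in wt libraries. The groups overlapped almost completely, and the highest value belonged to the library labelled female wt 14. The log2 fold change was 0.0082 ± 0.06 (SE; 95% interval -0.13 to 0.15; edgeR adjusted p = 0.9999). The ends of that interval correspond to 8.59% lower and 10.7% higher in P278KY. In bulk tissue fewer cells of a type and less RNA per cell cannot be told apart, here or below.

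Vegfa encodes VEGF-A, the ligand for which mutant synthetase was described to compete on neuropilin 1. Its mRNA is spliced into forms that differ in the stretch before the last coding exon, and the basic end that this exon encodes, closing in arginine, is the part known to fit the pocket of neuropilin 1. The last 30 coding bases of 3 annotated forms are shown to make that shared end visible; capitals mark the 22 bases of the last coding exon, from the minus strand of chr17:46018858-46018879, which end in the stop codon. The bases before them come from chr17:46024065-46024072, chr17:46020991-46020998 and chr17:46022277-46022284 on the same strand, in the order of the lines (GENCODE M21 on GRCm38).
Vegfa-201: ccagaaaaATGTGACAAGCCAAGGCGGTGA
Vegfa-202: acttgcagATGTGACAAGCCAAGGCGGTGA
Vegfa-203: tggagcgtATGTGACAAGCCAAGGCGGTGA
All 3 forms are among the 11 Vegfa transcripts that the deposited files list, and gene-level values sum over them.

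Vegfa (ENSMUSG00000023951, chr17:46016993-46032369, minus strand) had 67.3, 80.6 and 90.4 TPM as lowest, median and highest P278KY library, against 68.9, 84.3 and 89.7 TPM in wt libraries. Both the lowest and the highest of the 12 values were P278KY libraries, female 4 and female 7. Its log2 fold change was 0.0076 ± 0.05 (SE; 95% interval -0.11 to 0.13; edgeR adjusted p = 0.9999). The deposited mean transcript length, which RSEM weights by the abundance of a gene's transcripts and which therefore moves when their mix moves, was 1939 ± 103 bases in P278KY and 1934 ± 86.5 bases in wt libraries (SD, n = 6 each). Its mix of forms, as far as 1 number can show it, did not separate the genotypes.

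Sema3a, the other ligand of neuropilin 1, encodes semaphorin 3A, a secreted guidance cue that motor neurons themselves make. Sema3a (ENSMUSG00000028883, chr5:13125414-13602565, plus strand) had 52.3, 60.1 and 66.6 CPM as lowest, median and highest P278KY library, against 46.6, 52.4 and 63.6 CPM in wt libraries. Below every P278KY library lay 3 wt libraries, namely female wt 1 (46.6 CPM) and the libraries labelled female wt 14 (47.9 CPM) and male wt 19 (51.9 CPM). The means were 59.9 ± 4.99 CPM in P278KY and 53.1 ± 6.14 CPM in wt (SD, n = 6 each). The log2 fold change was 0.18 ± 0.07 (SE; 95% interval 0.02 to 0.33; unadjusted p = 0.0278 by edgeR's quasi-likelihood test), the 412th smallest p of the 17995, and it did not pass the threshold (edgeR adjusted p = 0.9999). Without the 2 libraries with discordant sex marks it was 0.14 (edgeR unadjusted p = 0.127, adjusted p = 0.978), so the unadjusted p was no longer under 0.05.

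Per transcript length the Sema3a difference was smaller. Its level was 15.6, 18.4 and 20.4 TPM as lowest, median and highest P278KY library, against 15.7, 17.04 and 19.5 TPM in wt libraries, and on the log2(TPM + 1) scale the difference was 0.07 (limma-trend unadjusted p = 0.326). The files list 5 transcripts for the gene, and the mean transcript length ran from 5485 to 5851 bases in P278KY libraries and from 5121 to 5886 bases in wt libraries. Of the wt libraries 3 had a mean length below every P278KY library and 1 had a length above all of them. Longer mean transcripts yield more counts at the same TPM, so the 2 scales do not measure the same quantity; the difference in length was not tested.

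**Figure D2:**
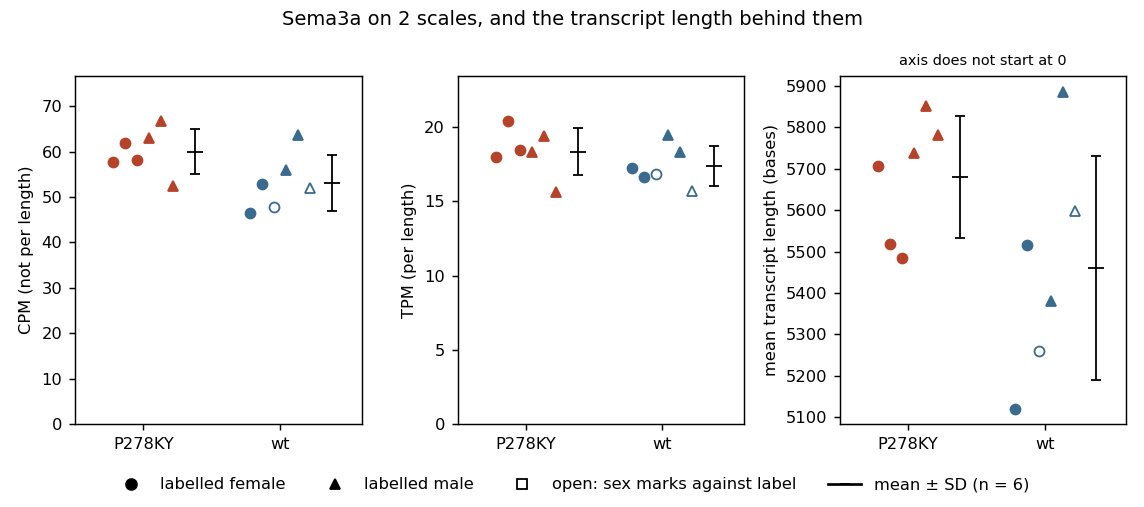
Sema3a in CPM, in TPM and as mean transcript length in bases (vertical axes; the length axis does not start at 0) in P278KY libraries (left) and wt libraries (right), symbols as in the plot of all 9 genes. Means were 59.9 and 53.1 CPM, 18.3 and 17.4 TPM, and 5680 and 5460 bases in P278KY and wt.

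The other neuropilin partners and class 3 semaphorins gave no call. Of 14 genes, all tested, 5 had a positive and 9 a negative log2 fold change, with a median of -0.03. Nrp2, the second neuropilin, stood at 27.4 ± 3.19 TPM in P278KY and 28.7 ± 4.29 TPM in wt libraries (SD, n = 6 each), and the ratio of Nrp1 to Nrp2 was 1.124 ± 0.133 in P278KY and 1.11 ± 0.195 in wt. The 3 with the smallest p were Sema3b (-0.43 ± 0.31 log2, SE), Sema3c (0.11 ± 0.10) and Sema3g (-0.18 ± 0.17), all secreted semaphorins, and none had an unadjusted edgeR p under 0.05. Sema3b ranged widely, from 3.50 to 18.4 TPM in P278KY and from 4.09 to 25.4 TPM in wt libraries.

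Kdr and Flt1 encode the VEGF receptors VEGFR2 and VEGFR1 of endothelial cells; the first carries most of the growth signal and the second binds VEGF-A tightly and, in its soluble form, acts as a decoy. Kdr (ENSMUSG00000062960, chr5:75932827-75978458, minus strand) had 21.4, 25.3 and 29.8 TPM as lowest, median and highest P278KY library, against 21.9, 24.0 and 29.6 TPM in wt libraries. Its log2 fold change was 0.08 ± 0.09 (SE; 95% interval -0.11 to 0.27; edgeR adjusted p = 0.9999). Without the 2 libraries with discordant sex marks it was 0.18 (edgeR adjusted p = 0.913), and with single libraries left out it ran from 0.035 (without female P278KY 10) to 0.13 (without the library labelled female wt 14). Flt1 (ENSMUSG00000029648, chr5:147561604-147726011, minus strand) had 15.3, 17.3 and 18.9 TPM in the same order of P278KY libraries, against 15.1, 17.9 and 19.4 TPM in wt libraries, with a log2 fold change of -0.0031 ± 0.06 (SE; 95% interval -0.14 to 0.13). The ratio of Flt1 to Kdr in TPM was 0.675 ± 0.0569 in P278KY and 0.714 ± 0.0353 in wt libraries (SD, n = 6 each), with overlapping ranges of 0.605 to 0.748 and 0.656 to 0.745. Flt1 mean transcript length, which would move with the share of its short forms, was 6500 ± 167 bases in P278KY and 6513 ± 166 bases in wt libraries.

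Endothelial content was measured by 11 marker genes, all detected in every library. Their summed level was 253 to 308 TPM in P278KY and 235 to 317 TPM in wt libraries, and 6 of the 11 had a positive and 5 a negative log2 fold change by genotype. The highest Kdr values were in female P278KY 10 (29.8 TPM), with an endothelial sum of 299 TPM, and in the library labelled female wt 14 (29.6 TPM), which had the highest sum. The lowest, in male P278KY 3 (21.4 TPM), went with a sum of 271 TPM. Kdr thus varied among mice of 1 genotype as widely as between genotypes.

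Nor was any other gene of the VEGF family or of its responses called. Vegfb, a ligand of VEGFR1, stood close to Vegfa in level: the ratio of Vegfa to Vegfb was 1.22 ± 0.117 in P278KY and 1.2 ± 0.144 in wt libraries (SD, n = 6 each). Of 5 further ligands and receptors 2 had a positive and 3 a negative log2 fold change (median -0.02), and the 3 with the smallest p were Vegfc (0.15 ± 0.11, SE), Vegfb (-0.03 ± 0.05) and Pgf (-0.06 ± 0.14). Of 7 endothelial genes that VEGF is known to induce, 1 had a positive and 6 a negative value (median -0.05). Aplnr, the receptor of the vessel peptide apelin, was the positive one, with 39.0 ± 11.6 TPM in P278KY and 29.97 ± 7.90 TPM in wt libraries (log2 fold change 0.40 ± 0.22 SE; edgeR adjusted p = 0.9999), while its ligand Apln had -0.09 ± 0.10 and the homeobox gene Hlx -0.21 ± 0.22. Without the 2 libraries with discordant sex marks Aplnr was 0.67 (edgeR unadjusted p = 0.0038, adjusted p = 0.389), Apln -0.14 and Hlx 0.033, and none was called.

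Hypoxia induces Vegfa through HIF1, and genes of that response were read for this reason. Of 12, 11 were tested, 5 with a positive and 6 with a negative log2 fold change (median -0.03), and none was called. An unadjusted p under 0.05 by edgeR was reached by 2 of the 11, against 4.09% of all tested genes. The 2 went in opposite directions: Pdk1, a kinase that holds pyruvate back from mitochondria (0.12 ± 0.04 SE), and Egln3, an oxygen sensor (-0.22 ± 0.09). Both had an edgeR adjusted p = 0.9999. Egln3 lay between 6.82 and 9.75 TPM in P278KY and between 8.97 and 10.3 TPM in wt libraries. Bnip3, which encodes a mitochondrial protein of the same response, followed with 0.07 ± 0.04, while its mean TPM was 80.8 in P278KY and 84.9 in wt libraries.

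TrkB and TrkC, encoded by Ntrk2 and Ntrk3, are the tyrosine kinase receptors of BDNF and of neurotrophin 3, growth factors on which motor and sensory neurons draw. Both genes also make short forms that lack the kinase, and in the nervous system the short TrkB is known as a form of astrocytes. The last 30 coding bases of a full-length and a short form of each gene are shown because gene-level values add the 2 kinds together; capitals mark the stop codon. For each gene the full-length form comes before the short one. They come from chr13:59128324-59128353 and chr13:58932031-58932060 (plus strand) for Ntrk2 and chr7:78192559-78192588 and chr7:78302629-78302658 (minus strand) for Ntrk3, in the order of the lines (GENCODE M21 on GRCm38).
Ntrk2 full length: tctcccgtctacctggatatcctaggcTAG
Ntrk2 short: ttgtttcataagatcccactggatgggTAG
Ntrk3 full length: accccgatctacctggacattcttggcTAG
Ntrk3 short: tatttcagcaaaggacgtcatggctttTAA
The 2 full-length ends share 23 of 30 bases and the 2 short ends 10 of 30, in an alignment without gaps. Coding sequences are 2466 and 1431 bases long for the full-length and short Ntrk2 forms, and 2478 and 1839 bases for those of Ntrk3.

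Ntrk2 (ENSMUSG00000055254, chr13:58806569-59133970, plus strand) was the most abundant of the 9. It had 97.5, 99.7 and 125.5 TPM as lowest, median and highest P278KY library, against 91.1, 107 and 125.5 TPM in wt libraries. The lowest value was in the library labelled female wt 14, and the groups overlapped throughout. The log2 fold change was 0.03 ± 0.08 (SE; 95% interval -0.15 to 0.20; edgeR adjusted p = 0.9999). The files list the 2 forms shown above and no other for this gene, so its mean transcript length follows their balance: it was 7680 ± 57.3 bases in P278KY and 7670 ± 45.8 bases in wt libraries (SD, n = 6 each), a difference smaller than the spread within each genotype. Astrocyte markers, 7 of 7 detected in every library, summed to 1402 to 1644 TPM in P278KY and 1305 to 1717 TPM in wt libraries.

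Ntrk3 (ENSMUSG00000059146, chr7:78175959-78738012, minus strand) had 42.6, 45.4 and 51.0 TPM as lowest, median and highest P278KY library, against 43.23, 46.6 and 56.6 TPM in wt libraries. The 2 highest values were those of female wt 1 (56.6 TPM) and female wt 2 (51.6 TPM). The log2 fold change was -0.03 ± 0.06 (SE; 95% interval -0.16 to 0.11). Mean transcript length was 2602 ± 20.6 bases in P278KY and 2603 ± 23.2 bases in wt libraries over the 4 transcripts listed. In GENCODE M21 the full-length and short forms shown above are 19703 and 3977 bases long, both above that mean. Whether the files weighted other transcripts or held other lengths was not tested. The place of Ntrk3 in the order by TPM depends on this length: averaged over 12 libraries it had 66.3 CPM, below the 103.8 CPM of Nrp1. The ratio of Ntrk2 to Ntrk3 in TPM was 2.30 ± 0.177 in P278KY and 2.22 ± 0.184 in wt libraries (SD, n = 6 each). The spans of Ntrk2, Ntrk3 and Sema3a, introns included, overlap other annotated genes on the opposite strand and on the same strand. That of Nrp1 overlaps a microRNA gene on the same strand. Whether counting used strand is not stated in the sources at hand, and overlap of exons was not examined. The part of these partners in the values was not tested.

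Ngfr encodes the p75 neurotrophin receptor, which binds all neurotrophins with the Trk receptors or alone, and which is strong in Schwann cells, in sensory neurons and in motor neurons during development. Ngfr (ENSMUSG00000000120, chr11:95568818-95587735, minus strand) had 5.23, 7.46 and 9.60 TPM as lowest, median and highest P278KY library, against 5.39, 7.48 and 34.9 TPM in wt libraries. The highest wt value was in the library labelled female wt 14, and the other 5 wt libraries lay between 5.39 and 8.58 TPM, inside the range of the P278KY libraries. On the log2 scale the fold change was -0.48 ± 0.40 (SE; 95% interval -1.38 to 0.43; edgeR adjusted p = 0.9999). Without the library labelled female wt 14 it turned to 0.09 (edgeR adjusted p = 0.9999), and without both libraries with discordant sex marks it was 0.06. The negative sign of Ngfr therefore rests on that library.

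Markers of several neighbouring tissues were high in the same library. The 8 sensory ganglion neuron markers summed to 11.97 to 24.1 TPM in P278KY libraries and to 14.4 to 166 TPM in wt libraries, the highest again in the library labelled female wt 14. Scn10a, which encodes a sodium channel of these neurons, ranged from 0.01 to 0.51 TPM in P278KY libraries, was 27.8 TPM in that wt library and was at most 0.640 TPM in the other wt libraries. Pou4f1 alone held 9.61 to 21.4 TPM of the sensory sum in P278KY libraries and 9.0 to 20.6 TPM in wt libraries. Schwann cell markers, 8 of 8 above 0 in every library, ranged from 25.5 to 2010 TPM in P278KY and from 181 to 2830 TPM in wt libraries. Male P278KY 3, which had the lowest Schwann cell sum (25.5 TPM), also had the lowest Ngfr (5.23 TPM). Motor neuron markers, of which 7 of 8 were found, summed to 110 to 148 TPM in P278KY and 107 to 316 TPM in wt libraries, with the highest sum in that wt library. Meninges and fibroblast markers summed to 398 to 794 TPM in P278KY and 274 to 1310 TPM in wt libraries, and red blood cell markers to 7316 to 15230 TPM in P278KY and 3830 to 17470 TPM in wt libraries, both again highest in the library labelled female wt 14. The part of neighbouring tissue in the Ngfr values was not tested.

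**Figure D3:**
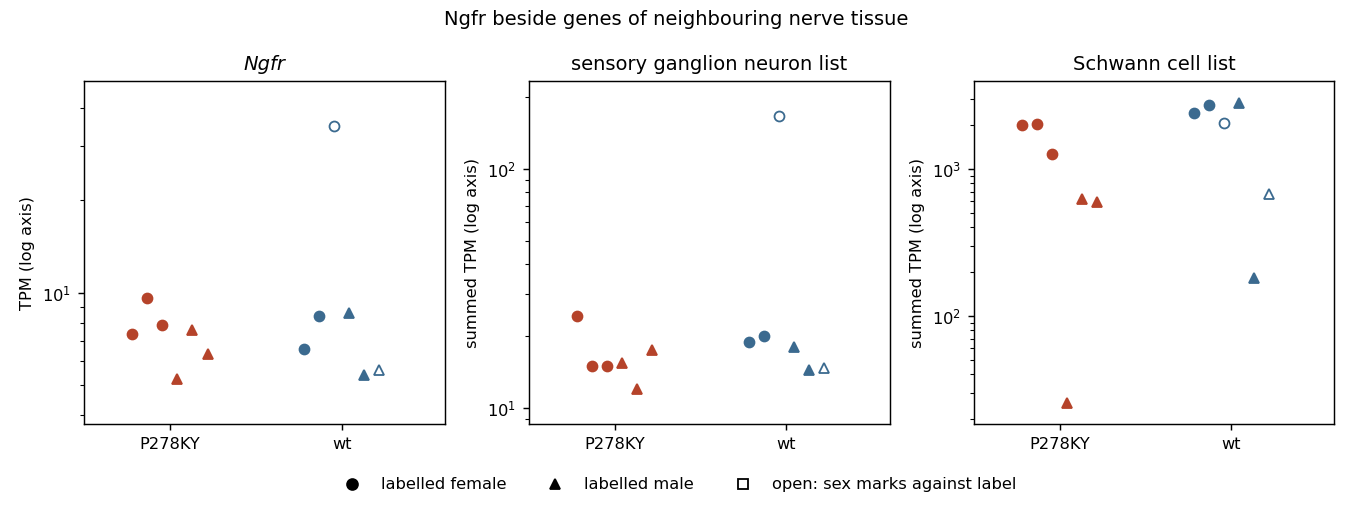
Ngfr in TPM and the summed TPM of sensory ganglion neuron and Schwann cell markers (log axes) in P278KY libraries (left) and wt libraries (right); circles are labelled female, triangles labelled male, open symbols have sex marks against their label. The library labelled female wt 14 stands apart for Ngfr (34.9 TPM) and the sensory list (166 TPM), and not for the Schwann cell list.

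The neurotrophin ligands named here were scarce in the cord and were not called. Bdnf stood at 3.67 ± 0.361 TPM in P278KY and 3.92 ± 0.719 TPM in wt libraries, and Ntf3 at 1.07 ± 0.238 TPM in P278KY and 1.203 ± 0.459 TPM in wt libraries (SD, n = 6 each). Of 7 neurotrophins and further receptors, 6 were tested, 2 with a positive and 4 with a negative log2 fold change. Among those with the smallest p were Sorcs2 (-0.06 ± 0.05 log2, SE), a co-receptor of p75, and Sort1 (0.04 ± 0.05), the sortilin that binds proneurotrophins. Among 15 adaptors of Trk and p75, 6 values were positive and 9 negative (median -0.01), led by the Nogo receptor gene Rtn4r (-0.16 ± 0.09), the adaptor gene Shc2 (-0.11 ± 0.07) and Sh2b1 (-0.05 ± 0.04).

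Genes that respond to neurotrophins and to activity were lower in fitted level in 7 of 8 cases, with a median log2 fold change of -0.07. Of all 17995 tested genes 9561 were lower. None of the 8 was called or had an unadjusted edgeR p under 0.05. The 3 with the smallest p were the transcription factor gene Nr4a1, with 8.30 ± 0.646 TPM in P278KY and 9.21 ± 1.41 TPM in wt libraries (-0.10 ± 0.09 log2, SE), the synaptic gene Arc (-0.12 ± 0.12) and the transcription factor gene Npas4 (-0.11 ± 0.12).

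HDAC6 is a deacetylase of the cytoplasm that removes acetyl groups from alpha tubulin and so tunes transport along axons; its inhibition has been described to help axons of Gars mutant mice. Hdac6 (ENSMUSG00000031161, chrX:7930120-7947889, minus strand) had 38.3, 44.1 and 49.8 TPM as lowest, median and highest P278KY library, against 41.5, 44.98 and 53.0 TPM in wt libraries. Below all wt libraries lay 2 P278KY libraries, male 5 at 38.3 TPM and female 10, which was within rounding of the lowest wt library, and 1 wt library lay above all P278KY libraries. Between genotypes the log2 fold change was -0.0035 ± 0.07 (SE; 95% interval -0.15 to 0.14; edgeR adjusted p = 0.9999). The gene is X-linked, and between libraries labelled male and female it differed by -0.03 ± 0.07 log2 (SE, male over female; edgeR adjusted p = 0.9998). Without the 2 libraries with discordant sex marks that difference was -0.038 (edgeR adjusted p = 0.9999).

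The files list 10 transcripts for Hdac6, and their mean length varied more than for the Trk genes. In libraries labelled female it was 2950, 3034 and 3138 bases in the 3 P278KY libraries and 3162, 3216 and 3344 bases in the 3 wt libraries, without overlap. Among 11231 tested genes whose length varied, 12.8% did not overlap in that comparison of 3 with 3, so Hdac6 is 1 of many. In libraries labelled male the P278KY values of 3013 to 3250 bases overlapped the wt values of 2851 to 3030 bases and lay on the other side. Both comparisons include a wt library whose sex marks go against its label. The 3216 bases are those of the library labelled female wt 14. The 3030 bases, inside the range of the female P278KY libraries, are those of the library labelled male wt 19.

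Among the other deacetylases, Hdac2 stood at 109 ± 5.36 TPM in P278KY and 115 ± 5.98 TPM in wt libraries, and Sirt2, the other deacetylase of tubulin, at 557 ± 75.8 and 577 ± 88.9 TPM, P278KY before wt (SD, n = 6 each). Of 11 in all, 6 had a positive and 5 a negative log2 fold change (median 0.0063), none called; Hdac4 (-0.07 ± 0.08 SE), Hdac8 (-0.05 ± 0.06) and Hdac2 (-0.02 ± 0.04) had the smallest p. Of 12 genes of tubulin acetylation and known HDAC6 substrates 2 were positive and 10 negative (median -0.01). Atat1, which adds the acetyl group that HDAC6 removes, had 101 ± 4.99 TPM in P278KY and 104 ± 7.35 TPM in wt libraries. Tuba1c, an alpha tubulin gene, had -1.62 ± 0.91 (SE), a value that moved most with 1 wt library: male wt 6 held 155.9 TPM, against 5.71 to 8.59 TPM in P278KY libraries and 5.74 to 12.5 TPM in the other wt libraries, and without it the value was -0.21. Hsp90aa1, a chaperone that HDAC6 deacetylates, had 0.07 ± 0.06 and Tuba1b -0.05 ± 0.05.

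**Figure D4:**
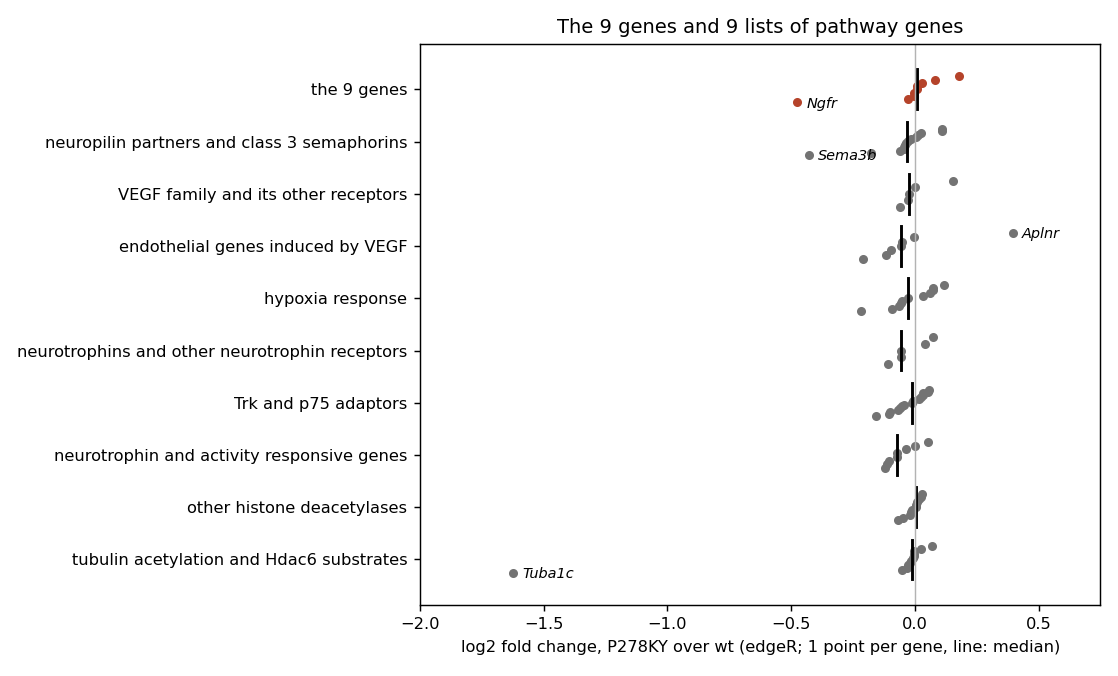
Log2 fold change of P278KY over wt (horizontal axis) for the 9 genes (top, red) and for the genes of 9 pathway lists (grey), 1 point per gene, with 1 tested gene not shown, black lines marking medians over all tested genes. Medians lie between -0.07 and 0.0076, and the point far to the left, Tuba1c at -1.62, is -0.21 without male wt 6.

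Over all 9 lists 89 of 91 genes were tested, 30 with a positive and 59 with a negative log2 fold change. Of all 17995 tested genes 8434 were positive and 9561 negative. The median was -0.02 in the lists beside -0.0064 over all genes tested, and none of the 89 was called. At an unadjusted edgeR p under 0.05 there were 2 of the 89, against 4.09% of all tested genes. The lists were put together for this comparison from textbook roles, with earlier results of these data known.

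Read within labelled sex, none of the 9 genes was called in females or in males, where the background was 0% of 17995 genes by edgeR in each. At an unadjusted edgeR p under 0.05 there was 1 of the 9 in females, against 10.7% of all tested genes, and none in males, against 4.91%. By DESeq2 the background was 1.64% in females and 0.189% in males, and again none of the 9 was called. Without the 2 libraries with discordant sex marks edgeR called 0.0605% of genes in females and 0.022% in males, and none of the 9. Sema3a had the smallest p in females, with 59.2 ± 2.32 CPM in P278KY and 49.1 ± 3.29 CPM in wt libraries (SD, n = 3 each) and a log2 fold change of 0.27 ± 0.10 (SE; edgeR adjusted p = 0.374); all 3 P278KY libraries lay above all 3 wt libraries, where 15.3% of tested genes did not overlap, and without the discordant libraries the value was 0.26. Of the 9 it was the only one without overlap in females, and in males there were 2, Nrp1 and Ntrk3, against 11.5% of tested genes. In males it had 60.6 ± 7.44 CPM in P278KY and 57.1 ± 5.93 CPM in wt libraries, a log2 fold change of 0.09 ± 0.10 (SE; edgeR adjusted p = 0.972), and without the discordant libraries the value was 0.02. The interaction of genotype with labelled sex, females over males, was 0.18 ± 0.14 (SE; edgeR adjusted p = 0.667), so a difference between the sexes was not shown.

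For Ntrk3 the labelled sexes had opposite signs, -0.12 ± 0.08 in females and 0.07 ± 0.08 in males, with an interaction of -0.20 ± 0.11 (SE; edgeR adjusted p = 0.564), the smallest p among the 9. For Vegfa they were -0.06 ± 0.07 in females and 0.07 ± 0.07 in males, and for Nrp1 0.08 ± 0.09 in females and -0.06 ± 0.09 in males. Without the discordant libraries the values in females were 0.19 for Nrp1, -0.20 for Ntrk3, -0.016 for Vegfa and 0.27 for Kdr, with the lowest edgeR adjusted p at 0.431. In males they were -0.07 for Nrp1, 0.08 for Ntrk3, 0.14 for Vegfa and 0.09 for Kdr. In that setting 3 of the 9 had an unadjusted edgeR p under 0.05 in females (Nrp1, Sema3a and Ntrk3), against 11% of tested genes, and 2 for the interaction (Nrp1 at 0.26 and Ntrk3 at -0.27), against 12.7%. None of the 9 interactions passed, against a background of 0% by edgeR, 1.55% by DESeq2 and 0.0275% by edgeR without the discordant libraries. With all 12 libraries none had an unadjusted edgeR p under 0.05 for the interaction, against 10.9% of tested genes. Ngfr had -0.96 ± 0.54 in females, where the library labelled female wt 14 belongs, and 0.02 ± 0.55 in males. Each of the values within sex that come from all 12 libraries contains a library whose sex marks go against its label. Between libraries labelled male and female, without regard to genotype, none of the 9 was called either, with a background of 0% by edgeR, 0.15% by DESeq2 and 0.055% by edgeR without the discordant libraries. None of the 9 had an unadjusted edgeR p under 0.05 there, against 4.6% of tested genes.

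**Figure D5:**
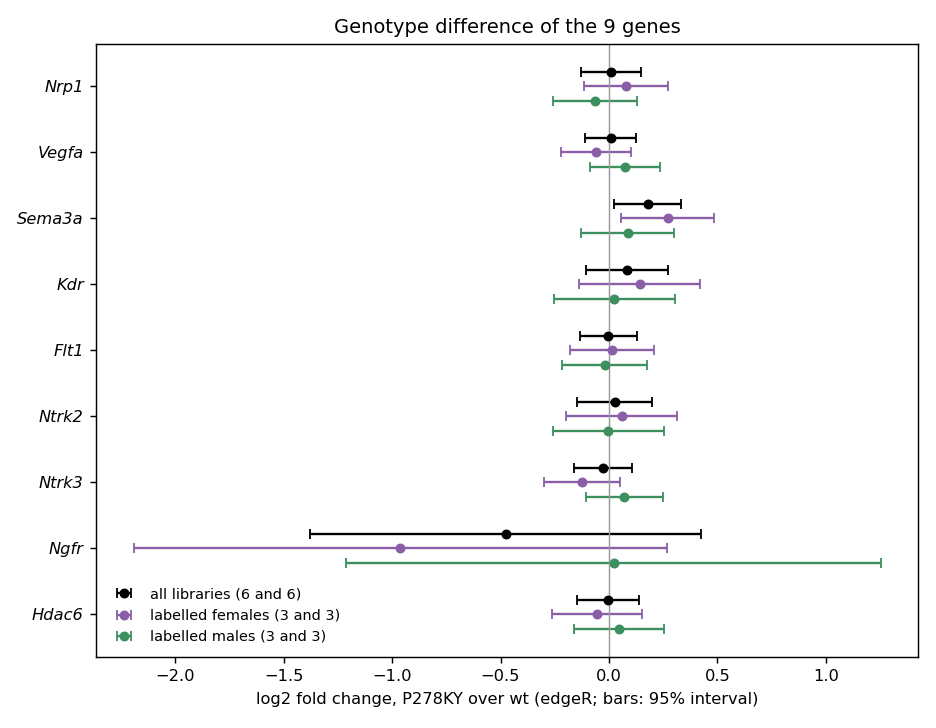
Log2 fold change of P278KY over wt (horizontal axis; bars are 95% intervals from edgeR) for the 9 genes in all libraries (black), in those labelled female (purple) and in those labelled male (green). Every interval reaches over 0 except those of Sema3a in all libraries (0.02 to 0.33) and in females (0.06 to 0.48), and the interval of Ngfr is the widest of the 9.

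For each of the 9 the genes whose log2 CPM followed it most closely over the 12 libraries were looked up among 15453 genes with a mean of at least 1 CPM. With so many genes and 12 libraries high values arise for any gene, so these are descriptions, and libraries share depth and tissue makeup. Vegfa was closest to Ndufs7 (Pearson r = 0.950), Cox14 (0.908) and Tomm5 (0.901), 3 genes of mitochondrial proteins. Hdac6 was closest to Sept3 (0.980), Slc8a2 (0.968) and Kif21b (0.953), and Ntrk2 to Mast4 (0.956), Klhl13 (0.947) and Hoxd9 (0.942). Ngfr was closest to Tspan17 (0.971), S1pr3 (0.960) and Crip2 (0.957), and without the library labelled female wt 14 these values were 0.862, 0.727 and 0.719.

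The receptors and ligands of the neuropilin and VEGF routes gave values of the same size. Nrp1 was closest to Cpne3 (r = 0.901), Xkr5 (0.897) and Col4a3 (0.847), Sema3a to Spop (0.914), Rab18 (0.902) and Actr6 (0.899), and Ntrk3 to Cdc42bpb (0.912), Usp7 (0.904) and Pcdhga9 (0.900). Kdr was closest to Cnpy2 (0.940), Snx6 (0.934) and Adamts1 (0.926), and Flt1 to Me1 (0.928), Mapkapk3 (0.913) and Klhl17 (0.892). Kdr and Flt1 had no gene in common among the 3 closest to each.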

How the data were processed

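Per the labels' protocols, poly(A) RNA of whole cord was made into stranded libraries and sequenced in pairs; 2 kits are named for every library. Bowtie2 2.2.0 and RSEM 1.2.12 are listed in the submitters' processing notes. The sources at hand name no build, annotation or strand setting. Each deposited file holds, per the file headers, an expected count, a TPM value, in which the authors scaled for transcript length and for the library total, and a mean transcript length per gene, which RSEM weights by the abundance of each transcript.

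Expected counts were rounded, filtered with filterByExpr, scaled by TMM and tested with edgeR 4.0.16 (quasi-likelihood, robust, R 4.3.3) on the 12 libraries together, with a term for labelled sex, adjusted by Benjamini-Hochberg over 17995 genes with a threshold of 0.05. Effects within sex and their difference were contrasts of the 4 group means. The common biological variation (BCV) was 23.9%. CPM used TMM-adjusted totals, and log2 CPM a prior count of 2. The procedure was also run on simulated counts, whose outcome is not reported here and is not used for any result. Alternatives were RLE factors, library totals, no filter, CPM above 1 in 6 libraries, no sex term, DESeq2 1.42.0, limma-voom and limma-trend (limma 3.58.1) on log2(TPM + 1), each library left out, and both libraries with discordant sex marks left out.

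Members and lists were chosen with earlier results of these data known. Of 188 list symbols 187 were found, 1 of them by its Ensembl identifier; Slc18a3 was not matched, and of 2 rows named Hdac4 the one with the higher count was used. Named genes are the 9, Gars, the 3 genes of each pathway list with the smallest p (or those past the threshold), the 3 most alike to each of the 9, and the most abundant marker of each cell list; other names were chosen after their values were seen, and a few genes that this rule names are not reported here. Ensembl identifiers linked the genes to GENCODE M21 (GRCm38), the source of all positions and sequences. Whether the deposited files used that build is unknown, and some lengths differ: Gars has 2390 bases in the files and 2380 in GENCODE M21.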

Additional observations from a re-analysis of the deposited data

Results flagged for a closer look

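Within each genotype the highest and lowest library of each of the 9 genes were compared with the rest, 18 groups of 6 in all, and about 1 in 20 such groups is marked by chance. One was: Ngfr in the library labelled female wt 14, where it had 63.6 CPM and whose distance to the next wt library takes up 0.894 of the range of the 6 wt libraries, past the limit of 0.625. The same library held the highest sensory ganglion neuron sum (166 TPM), and the part of neighbouring tissue was not tested.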

How the results depend on the processing

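None of the 9 genes was called in any comparison under any alternative; the lowest adjusted p by genotype over all alternatives was 0.6489 (edgeR, Sema3a without male P278KY 13). Sema3a kept a positive genotype value in every alternative, from 0.15 to 0.23 with single libraries left out. Of 189 gene and alternative pairs by genotype 33 changed sign, for Nrp1, Vegfa, Flt1, Ntrk2, Ntrk3, Hdac6 and Ngfr, and the cause was not tested.

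Genes called by genotype over all tested numbered 1. They numbered 0 with CPM above 1 in 6 libraries, 2 without a sex term, 33 by DESeq2, 0 without the 2 libraries with discordant sex marks, and 1 to 3 with single libraries left out (3 without female wt 2). From 0 in females the count became 296 by DESeq2, 11 without the discordant libraries and 0 to 9 with single libraries left out; from 0 in males 34, 4 and 0 to 4; and from 0 for the interaction 279, 5 and 0 to 3, with 3 when no filter was used. The highest of these 3 ranges came without the library labelled female wt 14. From 0 for labelled sex it became 27, 10 and 0 to 25 (25 without male wt 6).

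With library totals Nrp1 was -0.0073 and Vegfa -0.0067. By limma-trend on log2(TPM + 1) Nrp1 was -0.028, Vegfa -0.031, Ntrk2 -0.010 and Bnip3 -0.064 by genotype, Flt1 -0.031 and Hdac6 0.0083 in females, Vegfa -0.024, Kdr -0.019, Sema3a -0.0047, Ngfr -0.013 and Hdac6 -0.091 in males, and Hdac6 0.10 for the interaction. Without the discordant libraries Flt1 was 0.043, Ntrk2 -0.046, Ngfr 0.055, Sema3g 0.059, Pgf 0.059 and Hlx 0.033 by genotype, Ntrk2 -0.066 and Ngfr 0.17 in females, Flt1 0.029 and Ngfr -0.055 in males, and Ntrk2 -0.040 and Ngfr 0.22 for the interaction.

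With single libraries left out, genotype values ran from -0.039 to 0.049 for Nrp1, -0.015 to 0.036 for Vegfa, -0.054 to 0.022 for Flt1, -0.031 to 0.060 for Ntrk2, -0.050 to 0.0045 for Ntrk3, -0.61 to 0.086 for Ngfr, -0.041 to 0.033 for Hdac6 and -0.13 to 0.012 for Pgf. In females they ran from -0.0084 to 0.19 for Nrp1, -0.098 to 0.074 for Flt1, -0.066 to 0.14 for Ntrk2, -1.35 to 0.17 for Ngfr and -0.14 to 0.015 for Hdac6. In males the ranges were -0.069 to 0.089 for Kdr, -0.065 to 0.032 for Flt1, -0.042 to 0.054 for Ntrk2, -0.12 to 0.21 for Ngfr and -0.023 to 0.098 for Hdac6. For the interaction they were -0.078 to 0.095 for Flt1, -0.062 to 0.14 for Ntrk2 and -1.37 to 0.14 for Ngfr, and for labelled sex -0.066 to 0.0071 for Hdac6.

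No paired analysis was possible because mouse numbers are not shared between the groups.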
